A study of Mus musculus with 19 samples.

Results

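The 10 genes described here, Ttr, Folr1, Kl, Clic6, Kcnj13, Otx2, Sostdc1, F5, Enpp2 and Aqp1, mark the epithelium of the choroid plexus and were measured by RNA-seq in 19 libraries of mouse dorsal hippocampus. They were chosen by name, as the rows of the count table whose Ensembl identifier maps to these symbols, and all 10 were found among its 51789 genes. In experiment 1, 5 libraries of genotype tTA+/DN+ and 6 control libraries of genotype tTA+/DN- were compared after SOR, so that all groups of that experiment carried tTA. Experiment 2 held DN- control libraries only, 4 after SOR (3 tTA+ and 1 tTA-) and 4 from the homecage (2 tTA+ and 2 tTA-). All came from male C57BL/6J mice of 2 to 4 months. The labels give SOR by its abbreviation, name the DN mice Nr4ADN, and do not state which promoter or cell type drives tTA or the DN transgene.

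The choroid plexus is a fold of vascularised epithelium in the brain ventricles that secretes cerebrospinal fluid. It lies against the hippocampal fimbria and is not hippocampal tissue. Its epithelial cells make carriers and receptors that serve the fluid (Ttr, Folr1, Kl), channels that move ions and water (Clic6, Kcnj13, Aqp1), secreted proteins (Sostdc1, F5, Enpp2), and the homeodomain transcription factor Otx2, which is needed to form and keep this epithelium. In bulk RNA, fewer cells of a type and less RNA per cell cannot be told apart.

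Otx2 binds the core site TAATCC, which reads GGATTA on the opposite strand. The 250 bases before the start of transcription were searched for it on both strands in the RefSeq promoter windows of GRCm38.p6, where 5 of the 10 genes matched (Kcnj13, F5, Kl, Aqp1 and Otx2, with 8 windows). Among these windows, 1 holds the site, at 1 of the 4 annotated starts of Otx2 itself. It is shown for that reason, with the site in capitals, 211 bases before the start (chr14:48665110-48665359, minus strand):

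Otx2: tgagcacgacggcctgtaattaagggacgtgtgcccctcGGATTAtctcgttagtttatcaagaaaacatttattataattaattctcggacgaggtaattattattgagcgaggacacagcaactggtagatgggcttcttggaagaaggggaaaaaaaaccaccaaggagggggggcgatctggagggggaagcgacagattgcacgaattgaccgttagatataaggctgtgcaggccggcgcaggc

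Over all 32851 windows of this length, 2054 (6.25%) hold the site. A match is a description of the letters in the window and not a measured binding site.

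Library totals ran from 22258159 to 66991576 counts, and 27815 to 32495 genes had a count in a library. SOR replicate 3 of experiment 2 was lowest in both and had the lowest scaling factor (0.899). Between replicates of a group, the smallest chi-square per degree of freedom was 4.63 to 15.8, so no pair of libraries differed as little as sampling noise alone allows. The labelled tissue was checked against 6 markers of hippocampal neurons, whose summed level was 1506 to 2171 CPM (read counts scaled to library size, with TMM factors) over the 19 libraries, with none of the 6 at 0 in any library. By contrast, the sum of the 10 choroid plexus marker genes ran from 320.0 to 6424 CPM.

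Ttr (chr18:20665280-20674321, plus strand), which encodes transthyretin, the thyroid hormone carrier of the cerebrospinal fluid, set the range. DN replicates 1 to 5 had 139, 1477, 10.2, 15.05 and 20.4 CPM of Ttr. Among the 6 controls of experiment 1 the lowest level was 4.15 CPM, the median 8.89 and the highest 3753. The 4 SOR libraries of experiment 2 had 934, 2032, 9.99 and 35.3 CPM, and the 4 homecage libraries 35.3, 133, 50.7 and 25.8. The same group thus held both extremes of a 905-fold range, control replicate 6 with 142 Ttr counts and control replicate 1 with 118537. On a log scale, the widest gap in the ordered levels lay between 139 CPM (DN replicate 1) and 934 CPM (SOR replicate 1 of experiment 2), with 14 libraries below it and 5 above. The 5 above came from 3 of the 4 groups: DN replicate 2, controls 1 and 2 of experiment 1, and SOR replicates 1 and 2 of experiment 2. No homecage library was among them.

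**Figure D1:**
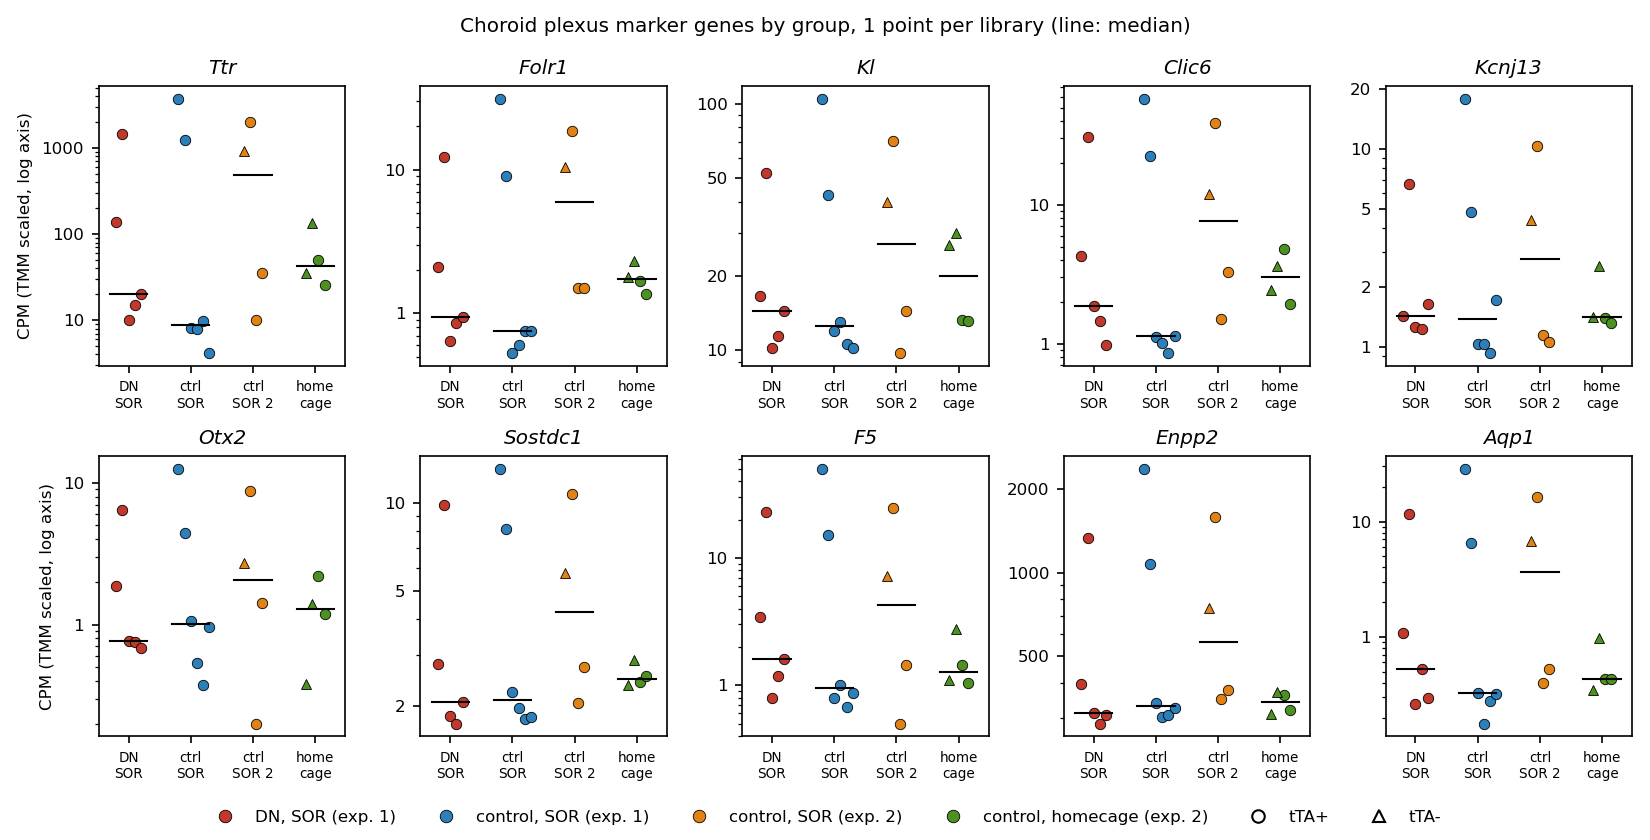
Level of each of the 10 marker genes in CPM on log axes, with 1 point per library, in the 4 groups (DN and control after SOR in experiment 1, control after SOR and in the homecage in experiment 2). Bars are group medians, triangles are tTA- libraries. Every gene has its highest point in control replicate 1 of experiment 1, and the 5 libraries with Ttr of at least 934 CPM hold the 5 highest levels of each gene.

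Among the carriers and receptors, Folr1 (chr7:101858331-101870788, minus strand), the folate receptor that carries folate into the fluid, followed Ttr over a 59.0-fold range. The DN libraries held 2.09, 12.3, 0.645, 0.862 and 0.945 CPM of Folr1, and their controls 0.529, 0.756 and 31.2 CPM (lowest, median, highest). The SOR libraries of experiment 2 held 10.5, 18.7, 1.499 and 1.496 CPM, and the homecage libraries 1.79, 2.31, 1.69 and 1.37. The high libraries were those high in Ttr. Kl (chr5:150952607-150993817, plus strand), which encodes the anti-ageing protein Klotho, a co-receptor for fibroblast growth factors, varied less, 10.7-fold. Its levels in DN replicates 1 to 5 were 16.5, 52.1, 10.3, 11.5 and 14.4 CPM, with a lowest, median and highest of 10.2, 12.5 and 105 CPM in the controls of experiment 1. After SOR in experiment 2, Kl levels were 39.7, 70.2, 9.74 and 14.4 CPM, with 26.7, 29.8, 13.3 and 13.1 for homecage replicates 1 to 4. Both tTA- homecage libraries, replicates 1 and 2, lay above both tTA+ ones in Kl, although homecage replicate 1 had less Ttr than homecage replicate 3.

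Of the channels, Aqp1 (chr6:55336432-55348555, plus strand), the water channel of the apical membrane, had the widest range of the 9 genes other than Ttr, 160-fold. Aqp1 levels were 1.09, 11.5, 0.264, 0.530 and 0.295 CPM for DN replicates 1 to 5, and 0.177, 0.323 and 28.4 CPM for their controls (lowest, median, highest). The SOR libraries of experiment 2 gave 6.73, 16.5, 0.400 and 0.528 CPM, and the homecage libraries 0.344, 0.977, 0.433 and 0.434. Its lowest level rested on 7 counts. Clic6 (chr16:92485736-92541243, plus strand), a chloride intracellular channel protein, ranged 67.8-fold and Kcnj13 (chr1:87386363-87394729, minus strand), the inward rectifier potassium channel Kir7.1, 19.3-fold. Clic6 levels were 4.29, 30.5, 1.88, 1.46 and 0.974 CPM for DN, 0.854, 1.13 and 57.9 for their controls (lowest, median, highest), 12.0, 38.8, 1.499 and 3.30 for SOR in experiment 2, and 2.44, 3.599, 4.77 and 1.94 for homecage. For Kcnj13 these were 1.44, 6.63, 1.26, 1.24 and 1.65 CPM, then 0.930, 1.38 and 17.95 CPM, then 4.39, 10.4, 1.15 and 1.06 CPM, and 1.41, 2.55, 1.405 and 1.32 CPM. Kcnj13 in control replicate 6 of experiment 1, the library with the least Ttr, was at 1.72 CPM (59 counts), above every other library below the gap except homecage replicate 2.

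Of the secreted proteins, Enpp2 (chr15:54838901-54952892, minus strand) encodes autotaxin, which makes lysophosphatidic acid and is also a product of oligodendrocytes. Enpp2 levels were 397, 1335, 313, 286 and 307 CPM for DN, and 301, 332 and 2356 for their controls (lowest, median, highest). They were 747, 1579, 351 and 376 CPM for SOR in experiment 2, and 309, 371, 364 and 319 for homecage, an 8.24-fold range in all. No library fell below 286 CPM. Sostdc1 (chr12:36314139-36318452, plus strand), a secreted antagonist of bone morphogenetic protein and Wnt signalling, had the narrowest range, 7.49-fold. In the same order of groups, its levels were 2.80, 9.86, 1.85, 1.75 and 2.07 CPM, then 1.81, 2.11 and 13.1, then 5.73, 10.8, 2.05 and 2.73, and 2.37, 2.88, 2.44 and 2.53. F5 (chr1:164151838-164220277, plus strand), coagulation factor V, ranged 99.4-fold and was at 3.42, 23.0, 0.792, 1.17 and 1.59 CPM, then 0.678, 0.944 and 49.7 CPM, then 7.18, 24.6, 0.500 and 1.43 CPM, and 1.10, 2.79, 1.45 and 1.05 CPM in the same order of groups. The F5 level in SOR replicate 3 came from 10 counts.

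Otx2 (chr14:48657677-48673819, minus strand) was the scarcest relative to its length at the top of the range, with 2.96 CPM per kilobase of exon in control replicate 1, against 3164 for Ttr and 408 for Enpp2. Its levels were 1.87, 6.44, 0.762, 0.751 and 0.679 CPM for DN, and 0.377, 1.01 and 12.5 for their controls (lowest, median, highest). SOR replicates 1 to 4 of experiment 2 had 2.73, 8.72, 0.200 and 1.43 CPM, and homecage replicates 1 to 4 had 0.378, 1.41, 2.21 and 1.19. The lowest Otx2 level, in SOR replicate 3, was 4 counts. All positions are those of GRCm38 in GENCODE M21, and all 10 genes are protein-coding. In that annotation 6 of the 10 overlap another gene: Folr1 with Anapc15, Clic6 with 2410124H12Rik, Kcnj13 with Gigyf2, Otx2 with Otx2os1 and Gm49154, F5 with Gm16548 and Gm16588, and Enpp2 with Gm26684. Whether the counting used strand is not given in the sources used here, so reads of these 6 genes and of their partners may not have been kept apart.

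The ratio to Ttr was not constant for any of the 9 other genes. Aqp1 came closest, with 5.31 to 77.5 counts per 1000 Ttr counts (median 14.5), a 14.6-fold range. Next were Clic6 (12.9 to 275, 21.3-fold), Folr1 (7.33 to 183, 25.0-fold) and F5 (7.68 to 211, 27.5-fold). The ratio moved more for Otx2 (2.92 to 232, 79.6-fold), Kl (27.9 to 2458, 88.2-fold), Kcnj13 (3.91 to 415, 106-fold), Enpp2 (628 to 78211, 125-fold) and Sostdc1 (3.48 to 444, 127-fold). In each of the 9 genes the highest ratio was in control replicate 6 of experiment 1, the library with the fewest Ttr counts. Among the 5 libraries above the gap in Ttr the ratio spanned least for Kcnj13, at 3.91 to 5.09, and most for Sostdc1, at 3.48 to 6.68, and F5, at 7.68 to 15.6. It was 5.31 to 8.10 for Aqp1, 628 to 904 for Enpp2 and 27.9 to 42.5 for Kl. In the 14 libraries below it they were at least 10.3 for Kcnj13, 2779.7 for Enpp2 and 119 for Kl, all above the range in the 5, whereas Aqp1 began at 7.33, within it. Those ratios rested on as few as 142 Ttr counts.

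**Figure D2:**
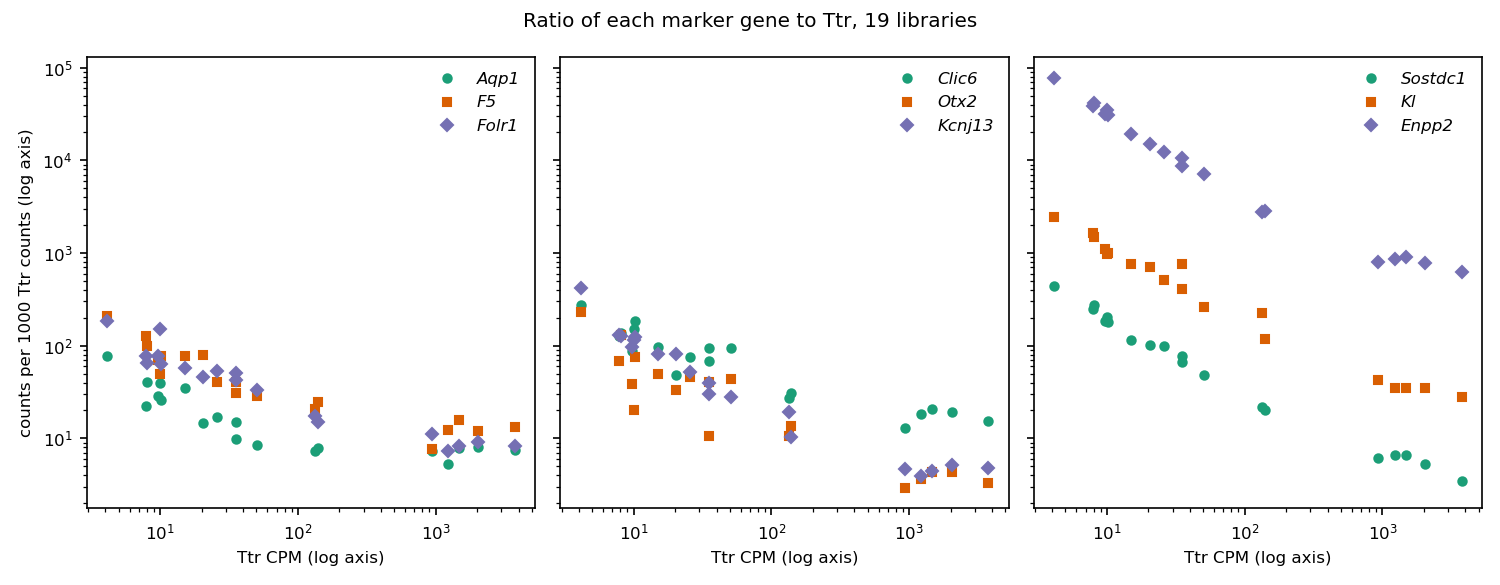
Counts of each gene per 1000 Ttr counts (log axis) against the Ttr level in CPM (log axis) in 19 libraries. All 9 ratios are highest at the left, and in the 5 libraries at or above 934 CPM of Ttr Enpp2 lies between 628 and 904 and Aqp1 between 5.31 and 8.10.

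Set against the library with the most Ttr, the library with the least kept more of every gene than proportion to Ttr would give. If each gene had fallen with Ttr, control replicate 6 would have held 89.1 Enpp2 counts, and it held 11106, or 125 times as many. The excess was 127 times for Sostdc1 (63 counts), 88.2 times for Kl (349 counts), 86.9 times for Kcnj13 (59 counts) and 69.9 times for Otx2 (33 counts). It was smaller for Folr1 (22.01 times, 26 counts), Clic6 (17.8 times, 39 counts), F5 (15.96 times, 30 counts) and Aqp1 (10.2 times, 11 counts). In 24 other genes known in the choroid plexus the excess had a median of 89.6 times and ran from 7.43 times for Slc4a5 to 778 times for Slc12a2, so the 9 genes lay within that range. These are values of 1 pair of libraries, with no replicate.

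Over all 19 libraries, each gene was described as a level present at no Ttr plus a part in proportion to Ttr. The level at no Ttr is an extrapolation, with no test, and says nothing of which cells hold the RNA. For Enpp2 it was 312 CPM, and 309 to 315 CPM when each library was left out in turn, which was 50.4% of its mean level. It was 2.07 CPM for Sostdc1 (49.9% of its mean), 13.2 CPM for Kl (48.9%), 1.21 CPM for Kcnj13 (36.3%) and 0.799 CPM for Otx2 (31.2%). Folr1 (0.858 CPM, 16.5%), Clic6 (1.32 CPM, 13.1%), F5 (0.787 CPM, 10.8%) and Aqp1 (0.243 CPM, 6.07%) kept less, and with the summed Kcne2, Slc4a5 and Tmem72 level in place of Ttr those of F5 and Aqp1 were 0.553 and 0.137 CPM. The values for Folr1 and Clic6 were higher in experiment 2 alone, at 1.28 and 2.11 CPM, than in experiment 1 alone, at 0.644 and 1.03 CPM.

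Per kilobase of exon, the level at no Ttr was 54.0 CPM for Enpp2, 1.42 for Kl, 1.16 for Sostdc1, 0.953 for Kcnj13, 0.374 for Folr1, 0.338 for Clic6, 0.189 for Otx2, 0.106 for F5 and 0.0925 for Aqp1. Enpp2 stood apart from the other 8 on this scale. The part that went with Ttr was larger than the constant part in 5 of 19 libraries for Enpp2, Kl, Sostdc1, Kcnj13 and Otx2, in 7 for Folr1, Clic6 and F5, and in 8 for Aqp1. Summed oligodendrocyte markers, given beside Enpp2 because oligodendrocytes also make it, were at 5881 to 7885 CPM over the 19 libraries with none of 8 at 0, and their part in the Enpp2 level was not tested. The relative residual SD of this description was 7.94% for Enpp2 and 13.7% for Sostdc1, and 21.1% to 47.9% for the other 7 genes, with Otx2 the highest.

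**Figure D3:**
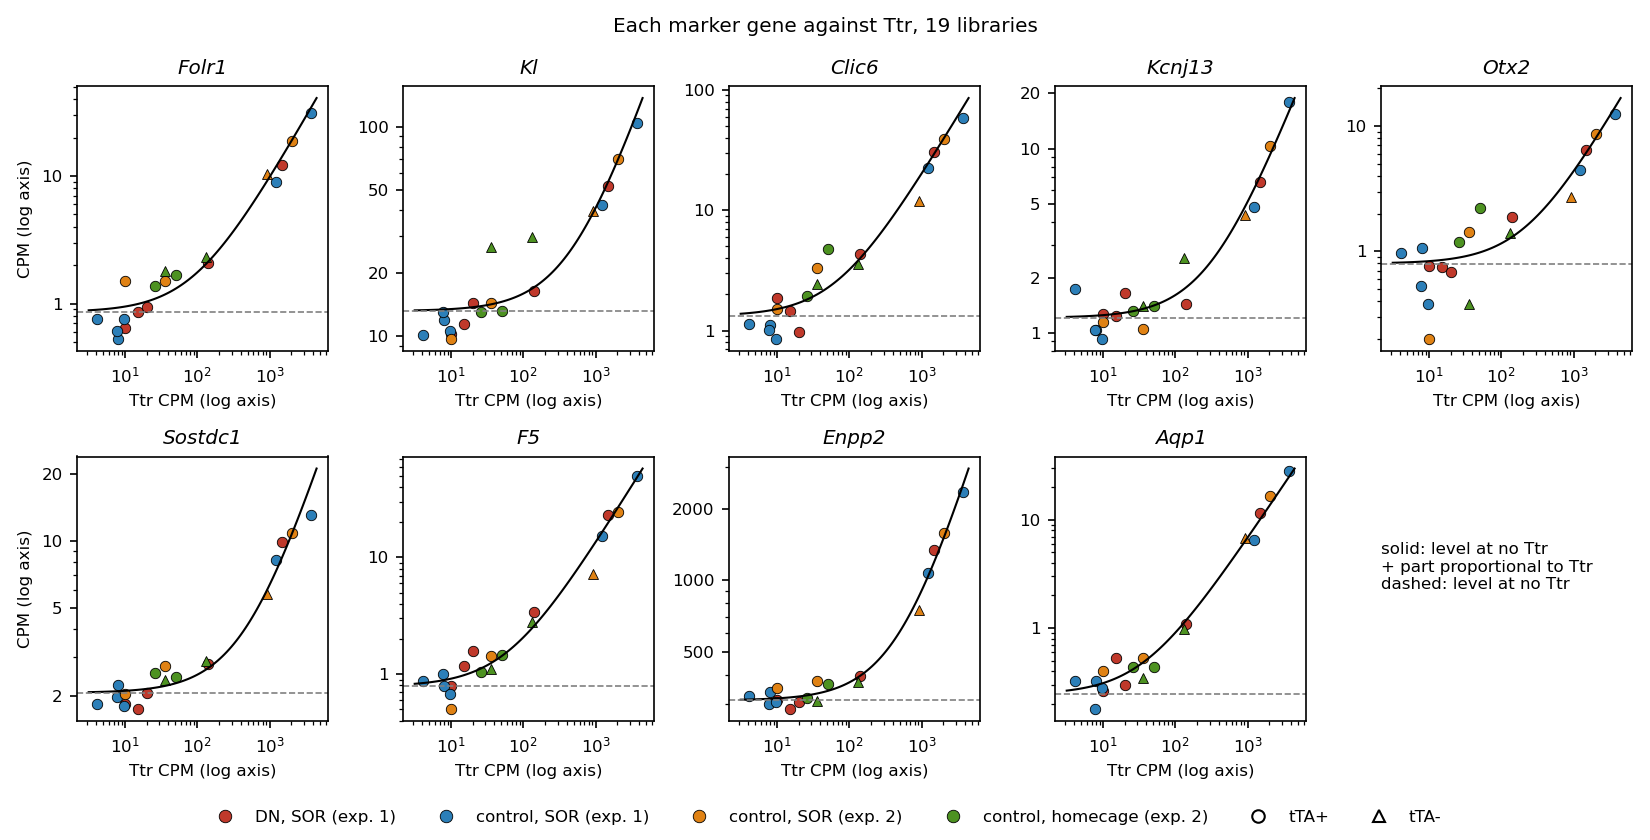
Level of the 9 genes other than Ttr against the Ttr level, both in CPM on log axes, 1 point per library (19), with the fitted level at no Ttr (dashed) and that level plus a part in proportion to Ttr (solid). Enpp2 flattens at 312 CPM and Kl at 13.2 CPM, whereas Aqp1 flattens at 0.243 CPM. The Kl triangles farthest above the line are the tTA- homecage libraries.

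Some libraries departed from this description gene by gene, and Folr1 departed by experiment, for which the fit had no term. Folr1 was at 0.569 to 0.991 times the fitted level in experiment 1 and at 0.979 to 1.58 times it in experiment 2. In Kl, homecage replicates 1 and 2, both tTA-, were at 1.88 and 1.76 times the fitted level, and the tTA- SOR library was at 1.01 times it. Homecage replicate 3, a tTA+ library, was at 2.26 times the fitted level in Otx2 and 2.09 times in Clic6, and at 0.906 times in Kl. Otx2 in SOR replicate 3 was at 0.240 times the fitted level, on 4 counts.

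Which genes moved with Ttr from library to library was asked with an edgeR quasi-likelihood fit of every gene on the log2 Ttr level, with experiment as a term. A slope of 1 means a change in proportion to Ttr. All 9 genes other than Ttr rose with it at an adjusted p under 0.05, where 0.987% of the 23715 genes tested rose and 0.143% fell. The slopes, as log2 change per log2 change of Ttr with 95% intervals, were steepest for Aqp1 at 0.77 (0.70 to 0.83), F5 at 0.65 (0.60 to 0.69), Clic6 at 0.61 (0.56 to 0.67) and Folr1 at 0.58 (0.53 to 0.63). Shallower slopes were those of Otx2 at 0.43 (0.35 to 0.51), Kcnj13 at 0.39 (0.33 to 0.45), Kl at 0.32 (0.27 to 0.37), Sostdc1 at 0.31 (0.27 to 0.34) and Enpp2 at 0.29 (0.24 to 0.34). None of the 9 intervals reached 1. The fit was a straight line on log scales over all libraries. A constant level plus a part in proportion to Ttr also gives a slope under 1 on such a line. The intervals do not measure that departure from a straight line. The edgeR adjusted p ran from 2.8e-16 (F5) to 2.05e-07 (Enpp2).

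Within experiment 1 alone all 9 genes were called, with slopes from 0.29 (Enpp2) to 0.74 (Aqp1), where 1.17% of genes rose and 0.201% fell. In experiment 2 alone 8 were, where 0.188% of genes rose and 0% fell, with slopes from 0.29 (Enpp2) to 0.83 (Aqp1), and Otx2 at 0.45 had an edgeR adjusted p of 0.0689. Since the levels fall into separate clusters, the slopes were fitted again in the 14 libraries below the gap. There, 1 of 9 genes was called, F5, at 0.50 (0.39 to 0.62, edgeR adjusted p 6.5e-04), where 0.0123% of genes rose and 0% fell. The other 8 slopes were all above 0, from 0.05 for Enpp2 to 0.42 for Aqp1, and 8 of the 9 had an unadjusted p under 0.05, where 1.99% of all genes tested had such a p and a slope above 0. The genes move together, so these p-values are not independent.

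Of 24 other genes known in the choroid plexus, 23 rose with Ttr and none fell, with a median slope of 0.33 against a median of 0.00 over all genes tested. The 10 genes outside the set most like Ttr, ranked by the p of a rising slope over 19 libraries, were Tmem72 (0.82), Slc4a5 (0.79), Cldn2 (0.59), 1500015O10Rik (0.47), Kcne2 (0.83), Col8a1 (0.58), Wdr72 (0.69), Mfrp (0.56), Cdh3 (0.86) and Prr32 (0.79). Kcne2 is a potassium channel subunit, Slc4a5 a sodium bicarbonate cotransporter and Cldn2 a tight junction claudin. The exception among the 24 was Slc12a2, the sodium-potassium-chloride cotransporter, with a slope of 0.03 (edgeR adjusted p 0.186) and a level of 126 to 182 CPM.

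Markers of other cells were set beside them in the same fit. None of 8 oligodendrocyte, 6 meningeal, 5 endothelial, 5 blood, 5 thalamic and 6 hippocampal neuron genes was called. Of 6 ependymal genes 1 rose, Foxj1, the regulator of motile cilia, with a slope of 0.07 (edgeR adjusted p 0.0381). The summed ependymal level was 28.3 to 59.0 CPM, with none of the 6 genes at 0 in any library.

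**Figure D4:**
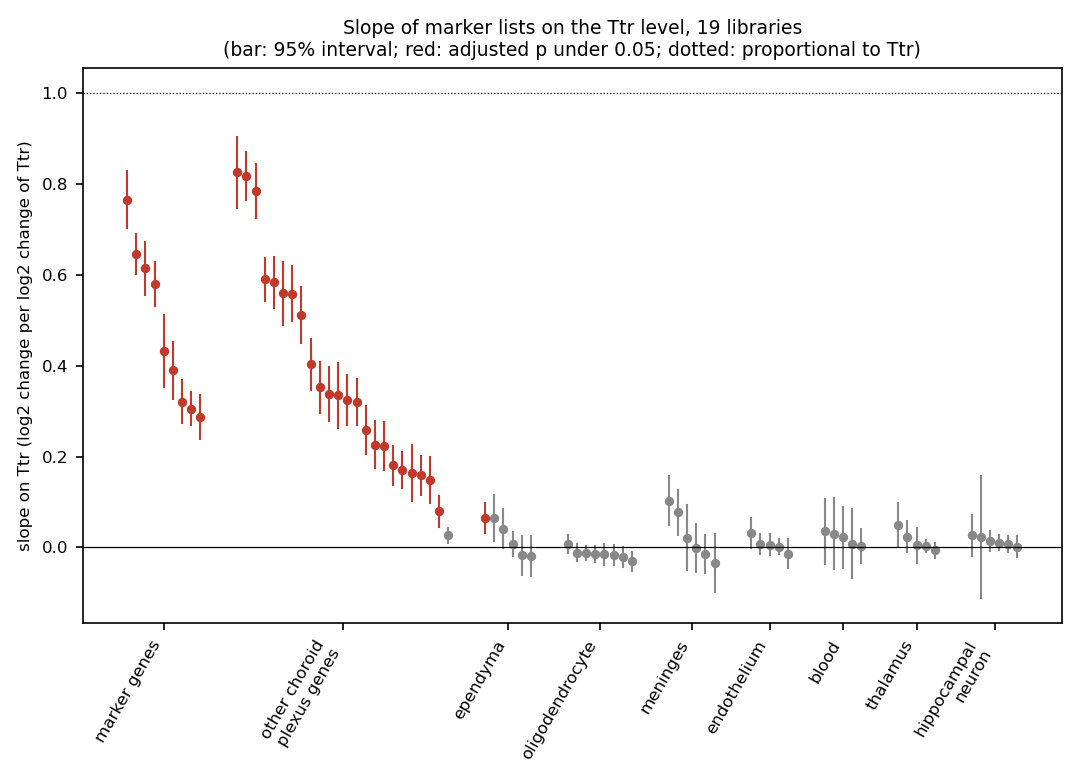
Slope on the Ttr level with its 95% interval for the 9 marker genes, 24 other choroid plexus genes and the markers of 7 other cell types or tissues, in 19 libraries. Red marks an edgeR adjusted p under 0.05, and the dotted line marks proportion to Ttr. All 9 marker genes and 23 of 24 other choroid plexus genes are red, and 1 ependymal gene is red among the other lists.

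The labels set DN mice beside control littermates after SOR, and none of the 10 genes was called between them (edgeR, 0.00893% of 22391 genes called, either direction). For every one of the 10 the fitted level was lower in DN libraries, with a median log2 fold change of -0.88 against a median of 0.00 over all genes tested, none had an unadjusted p under 0.05 (3.83% of genes did), and no gene's groups were apart in CPM (0.299% of genes). Ttr averaged 332 ± 642 CPM in DN libraries (SD, n = 5) against 835 ± 1511 in the 6 controls (SD), and its log2 fold change was -1.33 (SE 2.09, 95% interval -6.05 to 3.39, edgeR adjusted p 0.999). Without control replicate 1 the log2 fold change of Ttr was 0.40, and all 10 genes changed sign. Without DN replicate 2 that of Ttr was -4.18.

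After SOR against homecage in experiment 2, again none of the 10 was called (edgeR, 0.0897% of 22305 genes, either direction). All 10 fitted levels were higher after SOR, with a median log2 fold change of 1.75 against 0.01 over all genes, and 6 of the 10 had an unadjusted p under 0.05, where 7.6% of genes did. The 10 genes move together, so these p-values are not independent. Of 24 other choroid plexus genes, 17 had such an edgeR p and 22 were higher after SOR. With the log2 Ttr level as a covariate, 2 of the 9 genes other than Ttr had such a p, as did 4670 of all 22304 genes. Mean Ttr was 753 ± 955 CPM after SOR (SD, n = 4) against 61.3 ± 49.2 for the homecage (SD, n = 4), and its log2 fold change was 3.63 (SE 1.64, 95% interval -0.28 to 7.54, edgeR adjusted p 0.662). Aqp1 had the smallest edgeR p of the 10, 0.00672 before and 0.579 after adjustment, with a log2 fold change of 3.48 (SE 1.03). SOR replicates 1 and 2 were above all homecage libraries in all 10 genes, and SOR replicates 3 and 4 lay among or below them, except for Enpp2 in replicate 4 (376 CPM), so that no gene's groups were apart (5.71% of genes were). Without SOR replicate 2 the log2 fold change of Ttr was 2.41 and that of Kl 0.05. The tTA genotype was not spread evenly over the exposures, with 1 tTA- library of 4 after SOR and 2 of 4 in the homecage.

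Experiment 2 was also read by tTA genotype, with exposure as a term, over the same 8 libraries as the exposure comparison. None of the 10 genes was called (edgeR, 0.358% of 22904 genes, either direction), 3 of 10 had a positive log2 fold change, tTA+ over tTA-, and the median was -0.25 against 0.01 over all genes. Leaving out 1 library turned the sign for 5 of the 10 genes, so those 5 give no direction. The others stayed negative in each such fit: Ttr at -3.01 to -0.17, Folr1 at -1.48 to -0.23, Kl at -1.35 to -0.62, Kcnj13 at -1.16 to -0.02 and Aqp1 at -2.19 to -0.02. No member had an unadjusted p under 0.05 (5.71% of genes did), and no member's groups were apart in CPM (5.81% of genes). Mean Ttr was 431 ± 895 CPM for tTA+ (SD, n = 5) against 368 ± 493 for tTA- (SD, n = 3), with a log2 fold change of -0.83 (SE 1.73, edgeR adjusted p 1.0). Kl was at 26.7, 29.8 and 39.7 CPM in the 3 tTA- libraries, and at 13.3, 13.1, 70.2, 9.74 and 14.4 CPM in the 5 tTA+ libraries. Its log2 fold change was -0.77 (SE 0.590, edgeR adjusted p 1.0). Without SOR replicate 2, the tTA+ library with the most Ttr, it was -1.35 (edgeR adjusted p 0.0143).

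When the log2 Ttr level was added as a covariate, the standard errors of the other 9 genes became smaller, and none was called in any of the 3 comparisons (edgeR, 0.00893%, 0.135% and 0.458% of genes, either direction). For DN against control the 9 log2 fold changes were -0.46 to -0.14, with that of Aqp1 going from -1.14 (SE 1.55) to -0.21 (SE 0.303). For SOR against homecage they were -0.29 (Kl) to 0.81 (Aqp1), where those without the covariate were 0.72 (Kl) to 3.48 (Aqp1). For tTA 8 of the 9 log2 fold changes were positive, with a median of 0.35 against 0.01 over all genes tested. Of the 24 other choroid plexus genes 23 were positive, with a median of 0.34. The covariate was a straight line in log2 Ttr, which leaves out the flattening at low Ttr described above. The largest of the 9 were Otx2 at 1.39 (SE 0.304, unadjusted p 7.66e-04, edgeR adjusted p 0.109) and Clic6 at 0.84 (SE 0.201, edgeR adjusted p 0.158), both higher in tTA+ libraries at a given Ttr level. With no filter on low counts their edgeR adjusted p were 0.0183 and 0.0365, and with DESeq2 0.00209 and 0.0112, so the calls depended on those choices. They also depended on single libraries: Otx2 had an edgeR adjusted p of 0.00865 without SOR replicate 3 and 0.0199 without SOR replicate 4, and Clic6 0.0262 without SOR replicate 3. Without SOR replicate 2, Kl went from -0.35 to -0.93 (edgeR adjusted p 0.0405). Otx2 per 1000 Ttr counts was 10.7, 10.5 and 2.92 in the tTA- libraries and 43.6, 46.1, 4.29, 20 and 40.5 in the tTA+ libraries, and these overlap.

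**Figure D5:**
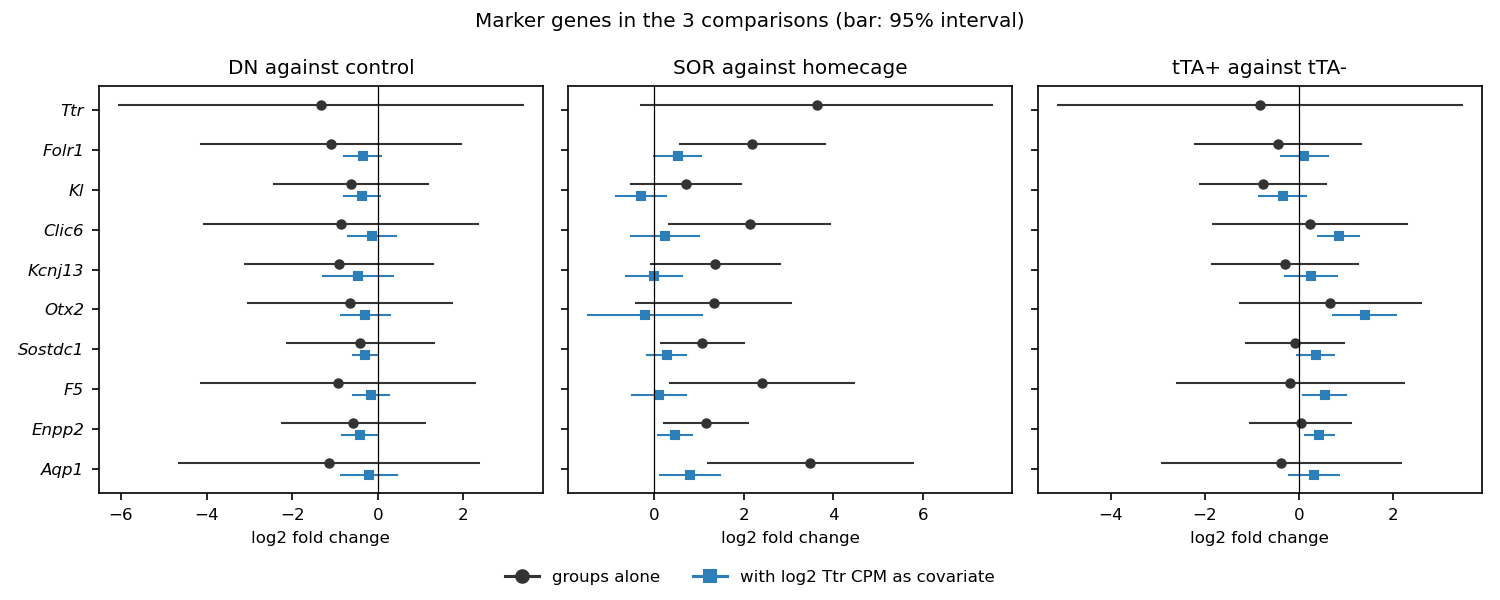
Log2 fold change with its 95% interval for the 10 genes in the 3 comparisons, from the groups alone (dark circles) and with the log2 Ttr level as a covariate (blue squares, 9 genes). Ttr has the widest interval in each comparison (-6.05 to 3.39 for DN against control), and with the covariate Otx2 at 1.39 and Clic6 at 0.84 in the tTA comparison are farthest from 0.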

How the data were processed

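RNA of dorsal hippocampus was sequenced after ribosomal RNA removal, per the labels' protocols, and the authors deposited 1 table of raw read counts per gene for the 19 libraries. The submitters' processing notes name STAR, SAMtools 1.6, featureCounts 1.4.4 and the genome build mm10. Settings, annotation and strand are not given in the sources used here. Groups came from sample titles, and tTA from the genotype label. The 10 marker genes and all gene lists were chosen with earlier results of these data known.

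CPM were scaled by TMM over the 19 libraries. Tests were edgeR 4.0.16 (R 4.3.3) quasi-likelihood fits with filterByExpr, with Benjamini-Hochberg adjustment over all genes tested, called at an adjusted p under 0.05. The fits were also run on simulated data, with an outcome that is not given here. The level at no Ttr came from iteratively reweighted non-negative least squares of CPM on Ttr CPM (weights, 1 over the squared fitted value). Ratios are counts per 1000 Ttr counts, and counting error limits those with few counts. Overlaps and exon lengths came from GENCODE M21. Text describes the 10 genes, the 10 genes with the smallest p for a rising slope, and Kcne2, Slc4a5 and Tmem72. Called members of the fixed lists are given as counts for the slope on Ttr, with some named. In the tTA comparison 1 of 6 hippocampal neuron genes was called lower in tTA+ libraries, with and without the Ttr covariate, and is not described. Alternatives were other size factors, no low-count filter, DESeq2 1.42.0, other covariates or sample sets, the replicate block and leaving out each library. The labels number the replicates and do not say whether each is a separate animal, so p-values measure the spread between these samples.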

Additional observations from a re-analysis of the deposited data

Results flagged for a closer look

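The highest or lowest library of a group was set against the others by Dixon's gap criterion in groups of 4 to 6, for the level of each gene and its ratio to Ttr. Of 76 groups examined, 21 held a library that stood apart. Chance gives about 1 in 20 for normally spread values, and since the 10 genes move together these are not independent. The levels and ratios were not log-transformed, and Ttr ranged 905-fold within 1 group, so that share does not hold for them.

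DN replicate 2 stood above the other 4 DN libraries in all 10 genes, with Ttr at 1477 CPM, Folr1 at 12.3, Kl at 52.1, Clic6 at 30.5, Kcnj13 at 6.63, Otx2 at 6.44, Sostdc1 at 9.86, F5 at 23.0, Enpp2 at 1335 and Aqp1 at 11.5 CPM. In the controls of experiment 1, replicate 1 stood apart in 8 of the 10, with Ttr at 3753 CPM, Folr1 at 31.2, Kl at 105, Kcnj13 at 17.95, Otx2 at 12.5, F5 at 49.7, Enpp2 at 2356 and Aqp1 at 28.4 CPM. The other 2, Clic6 and Sostdc1, were also highest there. On the log scale used for the gap in Ttr, controls 1 and 2 of experiment 1 both lay above it. Homecage replicate 2 stood apart in Kcnj13 at 2.55 CPM and in Aqp1 at 0.977 CPM. Among the ratios, Kcnj13 in control replicate 6 of experiment 1 stood apart at 415 counts per 1000 Ttr counts.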

How the results depend on the processing

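The 9 slopes on Ttr were called with other size factors, no low-count filter, DESeq2, group and tTA as terms, the summed Kcne2, Slc4a5 and Tmem72 level in place of Ttr, experiment 1 alone and each library left out. In experiment 2 alone Otx2 was lost, 42 genes rose and 0 fell, and in the 14 libraries below the gap, chosen after seeing the data, 3 rose, 0 fell and 1 of the 9 was called. DESeq2 gave 86 falling genes. Leaving out 1 library gave 124 to 311 rising and 12 to 63 falling genes.

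No member was called in the DN comparison or the exposure comparison under any alternative run without the Ttr covariate. SOR against homecage called 20 genes, and 36 with no filter, 116 with DESeq2, 100 with all 19 libraries in 1 fit, 11 with tTA as a term and 1 to 50 without 1 library. The tTA comparison called 82 genes, and 265, 255 and 383 under the first 3 of these, with 10 to 290 genes and 0 to 1 marker genes without 1 library. With the Ttr covariate, SOR against homecage called 30 genes, and 251 with no filter, 1059 with DESeq2 and 1 to 4104 without 1 library (0 to 1 marker genes, Folr1 without SOR replicate 4). The tTA comparison with it called 105 genes, and 176 with no filter and 225 with DESeq2, each with 2 marker genes, and 27 to 360 genes with 0 to 2 marker genes without 1 library. The cause was not tested.

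Replicate numbers did not pair the samples: correlations of same-numbered deviations were -0.043 to 0.189 in experiment 1 and 0.0294 to 0.354 in experiment 2, where 1 of 5 and 1 of 4 pairs correlated best with their own number. With the replicate block, SOR against homecage called 9 genes and the tTA comparison 0, and 7 tTA log2 fold changes turned positive, which made all 10 positive: Ttr 3.15, Folr1 2.14, Kl 1.16, Kcnj13 1.66, Sostdc1 1.54, F5 2.39 and Aqp1 2.41. The log2 fold change of Ttr went from 3.63 to 1.95 for SOR and from -1.33 to -0.32 for DN. Within a replicate number of experiment 2, tTA differed only in replicate 2. There the homecage library was tTA- (133 CPM of Ttr) and the SOR library tTA+ (2032 CPM of Ttr). The tTA values with the block therefore rest on that 1 pair and give no direction.

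Leaving out 1 library turned the sign of the following log2 fold changes, none of them called with all libraries. In DN against control the ranges were Ttr -4.18 to 0.40, Folr1 -2.62 to 0.48, Kl -1.28 to 0.23, Clic6 -2.69 to 0.52, Kcnj13 -1.68 to 0.33, Otx2 -1.67 to 0.46, Sostdc1 -1.19 to 0.16, F5 -2.68 to 0.65, Enpp2 -1.27 to 0.17, Aqp1 -3.41 to 0.78. In the tTA comparison they were Clic6 -0.90 to 0.47, Otx2 -0.17 to 0.98, Sostdc1 -0.58 to 0.0617, F5 -1.57 to 0.30, Enpp2 -0.44 to 0.16. With the Ttr covariate they were F5 -0.33 to 0.0129, Aqp1 -0.58 to 0.0737 for DN, Kcnj13 -0.37 to 0.26, Otx2 -1.05 to 0.24, F5 -0.14 to 0.27 for SOR, and Folr1 -0.23 to 0.27, Kcnj13 -0.28 to 0.43, Aqp1 -0.0297 to 0.47 for tTA.

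Set against the relative residual SD of the fit times the level itself, the level at no Ttr moved by more than 1 SD for Folr1 (1.28 CPM) and Clic6 (2.11 CPM) in experiment 2 alone, and for F5 (0.553 CPM) and Aqp1 (0.137 CPM) with the summed 3-gene level. Depth limits the lowest levels, since Otx2, Aqp1 and F5 had libraries with 4, 7 and 10 counts.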
